A study of Mus musculus with 3 samples.

Results

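The cells described here are macrophages of the mouse heart that carry RNA for the chemokine receptor Ccr2 and none for 4 marker genes of other macrophage states. They were chosen by measured values. A member had at least 3 Ccr2 UMIs (unique molecular identifiers, each standing for 1 captured RNA molecule) and 0 UMIs of Timd4, Lyve1, Ly6c2 and Arg1. Its C1qa, C1qb and C1qc UMIs together made up at least 40 of every 10000. Of 8207 cells that passed a filter on detected genes and mitochondrial RNA, 1241 were members (15.1%). Differences in these 8 genes follow from the choice and are no result.

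Cells came from 3 libraries of C57BL/6 mice aged 8 to 12 weeks, and each group is 1 library. The steady-state macrophage library and the day 11 library, made 11 days after myocardial infarction, came from mice with the genotype Cx3cr1CreER-YFP/+:R26Td/+. In these mice the Cx3cr1 locus drives YFP and a tamoxifen-dependent Cre, and Cre activity switches on a tdTomato reporter. The third library held steady-state macrophages and dendritic cells (DCs) of wild type mice. The sort for macrophages took CD45+ cells with CD64 and CD11b on their surface. The sort for DCs, used in the third library, took CD45+ CD64- CD11c+ cells, with MHC class II protein from intermediate to high. All hearts were digested with Flavopiridol, an inhibitor of transcription, in the buffer. The labels do not give the number of animals per library.

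CCR2 is the receptor through which classical monocytes leave the bone marrow and enter tissues along gradients of chemokines such as CCL2. In the heart, macrophages that carry it are replaced from blood monocytes, whereas macrophages with TIMD4 and LYVE1 keep their number largely by local division. MHC class II molecules present peptides to CD4 T cells. H2-Aa, H2-Ab1 and H2-Eb1 encode chains of these molecules, Cd74 encodes the invariant chain that guides them, and H2-DMa and H2-DMb1 encode the exchange factor that loads the peptide. The coactivator CIITA switches the family on through a shared promoter module, and 1 element of this module, the Y box, is an inverted CCAAT box bound by NF-Y.

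H2-Ab1 and Cd74 were given as markers of these cells beside Ccr2, and the class II genes carry the main contrast below. The 150 bases upstream of the start of H2-Aa (chr17:34287824-34287973, minus strand) and H2-Eb1 (chr17:34305717-34305866, plus strand) hold the letters of a Y box. They come from RefSeq on GRCm38.p6, and capitals mark the letters CTGATTGG of the Y box.
H2-Aa: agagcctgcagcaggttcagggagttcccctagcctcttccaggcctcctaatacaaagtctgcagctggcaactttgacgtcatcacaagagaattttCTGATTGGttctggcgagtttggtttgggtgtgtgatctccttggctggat
H2-Eb1: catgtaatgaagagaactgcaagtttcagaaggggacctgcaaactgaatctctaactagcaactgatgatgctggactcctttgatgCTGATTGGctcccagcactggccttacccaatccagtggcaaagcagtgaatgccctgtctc
The match begins 51 bases before the start of H2-Aa and 62 bases before that of H2-Eb1. CTGATTGG was searched on both strands (CCAATCAG on the other) of 32851 RefSeq promoter windows of 300 bases, and 1346 of them held it (4.10%). Of the 11 genes in the class II list, 8 had a window, and 4 held the letters: H2-Aa, H2-Eb1, H2-Eb2 and H2-Oa. H2-DMa, H2-DMb1, H2-DMb2 and H2-Ob had a window without these exact letters. H2-Ab1 and Cd74 had no window and were not searched. A match is a description of the sequence and not of binding.

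In all, 6913 cells passed the C1q gate. Of these, members were 6.74% in the steady-state macrophage library (116 of 1722; exact Clopper-Pearson 95% interval 5.60 to 8.03). The day 11 library had 21.2% (934 of 4406; 20.0 to 22.4) and the macrophage and DC library 24.3% (191 of 785; 21.4 to 27.5). The steady-state macrophage library was thus the low one, and the other 2 intervals overlap. All intervals given here cover counting error only, and no spread between animals can be had from 1 library per group. The macrophage and DC library differs from the other steady-state library in genotype and sort gate, so the distance between the 2 measures more than the spread of replicates.

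Cells with Ccr2 RNA were about as frequent in all 3 libraries. Gated cells with at least 3 Ccr2 UMIs were 28.4% of the steady-state macrophage library (26.3 to 30.6), 30.55% of the day 11 library (29.2 to 31.9) and 26.6% of the macrophage and DC library (23.6 to 29.9), with overlapping intervals. The libraries differed in how many of these cells the other 4 genes removed, which was 373 of 489 (76.3%), 412 of 1346 (30.6%) and 18 of 209 (8.61%). At steady state Lyve1 was found in 331 of the Ccr2 cells and Timd4 in 268, against 73 with Ly6c2 and 2 with Arg1. At day 11 Arg1 was found in 187, Lyve1 in 169, Ly6c2 in 115 and Timd4 in 86.

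**Figure D1:**
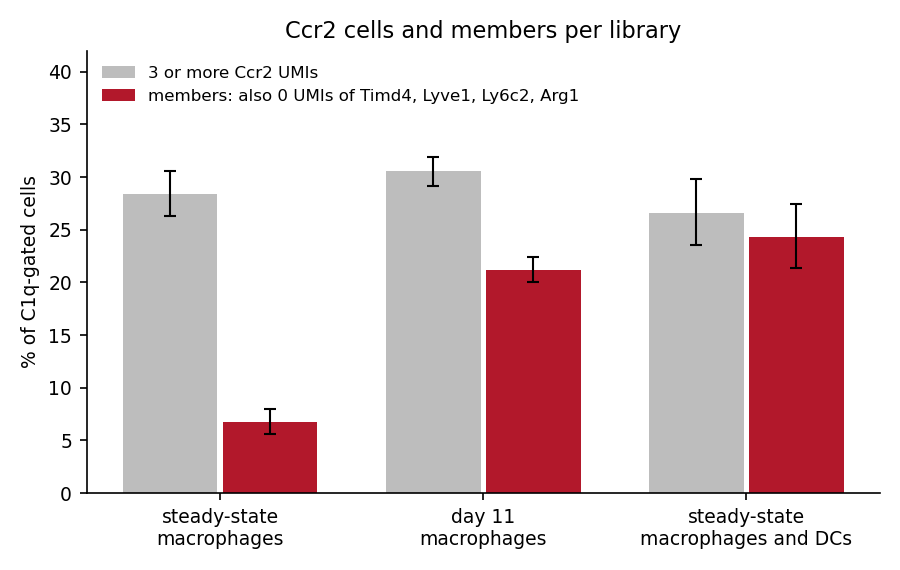
Shares of C1q-gated cells (%) in each library, for cells with 3 or more Ccr2 UMIs (grey) and for members (red), with exact 95% intervals as bars. The grey bars lie between 26.6 and 30.55% in all 3 libraries, while members range from 6.74 to 24.3%.

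The Ccr2 cells that were left out for the 4 genes were deeper than the members, which bears on how a zero is read. Their median UMI count was 19354 at steady state, 14735 at day 11 and 7559 in the macrophage and DC library, against 9103, 8881 and 6673 in members. A deeper cell has more chances to show 1 UMI of a gene, and the part of depth in the shares was not tested. Ccr2 in the cells left out stood at 354, 466 and 707 CPM (UMIs per 1000000 UMIs), against 693, 634 and 860 CPM in members. Gated cells with both Timd4 and Lyve1 had Ccr2 at 128, 132 and 42.4 CPM, and at steady state 27.2% of those 852 cells had 3 or more Ccr2 UMIs. The highest Scrublet doublet scores fell on 3.22, 10.2 and 16.7% of the cells left out on 0.862, 5.46 and 5.76% of members, and on 0.443, 2.44 and 0.216% of gated cells with 0 Ccr2 UMIs. Members thus held more high scores than the cells they are compared with, and the part of doublets in the differences is given only by leaving these cells out.

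Around the thresholds, 24, 223 and 44 cells of the 3 libraries missed membership with 2 Ccr2 UMIs, and 15, 216 and 27 members had exactly 3. Cells with 3 or more Ccr2 UMIs and none of the 4 genes that failed the C1q gate numbered 4, 76 and 418. The last number comes from the library with sorted DCs. The C1q gate does not by itself exclude other cells. Cells with 3 or more UMIs of the B cell gene Cd79a reached it in 28 of 31 cases at steady state (median 158.5 C1q UMIs per 10000) and in 15 of 17 at day 11, and T or NK cells in 4 of 5 and 6 of 14. At steady state 5 of 14 cells with endothelial genes reached it, and 7 of 335 cells with genes of type 1 DCs (cDC1; 2.09%) did in the macrophage and DC library. The median of members was 174 C1q UMIs per 10000 at steady state, 189.5 at day 11 and 119 in the macrophage and DC library. Whether doublets or free RNA brought the other cells past the gate was not tested.

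Members carried the general macrophage genes, at lower levels in the macrophage and DC library. Csf1r, the receptor for the growth factor CSF1, stood at 1000.1 CPM in steady-state members, 855 CPM in day 11 members and 487 CPM in members of the macrophage and DC library. Adgre1, which encodes F4/80, stood at 498, 485 and 238 CPM, and Fcgr1, which encodes the sort marker CD64, at 246, 265 and 84.7 CPM. The 14 genes of the macrophage core list were all detected in the members of each library. Their summed levels were 10932, 12362 and 8369 CPM. Gated cells without Ccr2 UMIs had more, 12144, 13885 and 11237 CPM. Cells picked on Ly6c2 and Plac8, described below, also had more, 12263, 13126 and 10832 CPM. Cells picked on Cd209a and low C1q, also described below, had all 14 genes at lower sums. These were 6787 CPM (day 11) and 5375 CPM (macrophage and DC library). Detection of the list thus does not set members apart from the Cd209a cells, nor does a high sum from the Ly6c2 Plac8 cells.

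Some genes of classical monocytes and of DCs were at or near 0 in members, and others were not. The cells set beside them were picked on their own marker genes, whose levels in them are therefore no comparison. They were cells with 3 or more UMIs of both Ly6c2 and Plac8 (36, 76 and 12 cells) and cells with 3 or more Cd209a UMIs and a C1q level under 10 per 10000 (0, 30 and 340 cells). Chil3, a monocyte gene, had 0 UMIs in members of both steady-state libraries and 8.12 CPM at day 11, against 288, 359 and 148 CPM in the Ly6c2 Plac8 cells. The DC growth factor receptor Flt3 stood at 2.54, 8.12 and 2.78 CPM in members, and in the Cd209a cells at 93.5 CPM (day 11) and 59.1 CPM (macrophage and DC library). Zbtb46, a transcription factor of DCs, had 0 UMIs in both steady-state member groups and was found in 6 of 934 day 11 members. The type 2 DC list summed to 212, 336 and 419 CPM in members, against 240.5, 118 and 241 CPM in gated cells with 0 Ccr2 UMIs. The cDC1 list summed to 632, 564 and 685.5 CPM, against 459, 412 and 552 CPM. In gated cells with 0 UMIs of Ccr2 and the 4 genes, the type 2 DC sums were 142.5, 99.0 and 188 CPM. The cDC1 sums there were 660, 427 and 676 CPM. Plac8 and Cd209a themselves, of monocytes and of type 2 DCs, stood at 48.2, 63.7 and 23.6 CPM and at 23.7, 49.8 and 86.1 CPM in members.

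The classical monocyte list as a whole was higher in members than in Ccr2-zero cells, the gated cells with 0 Ccr2 UMIs (903, 2211 and 463 cells). Its 14 genes summed to 1329 CPM in steady-state members, 1596 CPM at day 11 and 4567 CPM in the macrophage and DC library, against 1044, 1142 and 1249 CPM. The Ly6c2 Plac8 cells had 4970, 8777 and 7472 CPM. They were chosen in part on Plac8, which is in this sum, while Ly6c2 is not. The Cd209a cells had 5154 CPM (day 11) and 5220 CPM (macrophage and DC library). The 3 genes measured, S100a4, S100a6 and Ms4a4c, were higher in members in all 3 libraries, with median log2 ratios of 0.45, 0.74 and 1.85. Ms4a4c alone passed 2-fold in each. Members of the macrophage and DC library thus had a summed level near that of the Cd209a cells.

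Lists for neutrophils, T or NK cells, B cells, endothelial cells, fibroblasts and cardiomyocytes had no gene at 50 CPM in every library. Their summed levels in members ran from 2.54 CPM for T or NK cells to 105 CPM for cardiomyocytes, both at steady state.

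The label's second part, the absence of resident markers, holds for Timd4 and Lyve1 by the choice and not for other resident genes. Folr2, a folate receptor of resident macrophages, stood at 203 CPM in steady-state members, 122 CPM at day 11 and 27.8 CPM in the macrophage and DC library. Ccr2-zero cells had 1423, 337 and 922 CPM. Cd209a cells, as a background, had 7.19 CPM at day 11 and 6.80 CPM in the macrophage and DC library. Cd163, a haemoglobin scavenger receptor, stood at 48.2, 14.9 and 27.8 CPM in members, 5.19, 3.50 and 8.07-fold lower than in Ccr2-zero cells. Members of all 3 libraries were thus lower than Ccr2-zero cells without lacking these RNAs, and those of the macrophage and DC library had the lowest Folr2.

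MHC class II RNA was high in members of all 3 libraries and varied little between them, whereas the cells around them differed. H2-Ab1 (ENSMUSG00000073421; chr17:34257689-34269419, plus strand, mm10), the beta chain gene of I-A, stood at 16041 CPM in steady-state members, 14728 CPM at day 11 and 17225 CPM in the macrophage and DC library. Ccr2-zero cells had 6908, 4710 and 11071 CPM. The ratio at steady state was 2.32 (exact 95% interval 2.29 to 2.36). It was 3.13 at day 11 (3.10 to 3.15), and 1.56 for the macrophage and DC library (1.53 to 1.58). Cd74 stood at 46769, 42335 and 49601 CPM in members, with ratios of 2.38 (2.36 to 2.40), 3.04 (3.02 to 3.05) and 1.43 (1.41 to 1.44). Between libraries the H2-Ab1 level of members spanned a factor of 1.17, while that of Ccr2-zero cells spanned a factor of 2.35.

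The other class II genes followed the same order of libraries. H2-Eb1 stood at 13601, 12011 and 15229 CPM in members, 2.56, 3.47 and 1.61 times the level in Ccr2-zero cells. H2-Aa (chr17:34282744-34287823, minus strand, mm10) gave 2.37, 3.14 and 1.44, and H2-DMb1 gave 2.39, 3.07 and 1.99. Ciita, which encodes the coactivator, stood at 60.0, 52.1 and 38.2 CPM in members against 23.4, 15.1 and 23.1 CPM, ratios of 2.57 (1.94 to 3.37), 3.45 (2.97 to 4.01) and 1.66 (1.11 to 2.48). Of the 11 genes in the list, 6 reached 50 CPM in members or Ccr2-zero cells of every library. In the steady-state macrophage and day 11 libraries all 6 were at least 2-fold higher in members, where 1.44% and 0.765% of all 2221 genes tested were. None was 2-fold higher in the macrophage and DC library, where 1.49% of all genes were, so no class II gene passed 2-fold in all 3 libraries. The median log2 ratio of the list was 1.25, 1.63 and 0.66, against -0.04, -0.02 and -0.06 over all genes tested. The comparison of members with Ccr2-zero cells is the one the choice rests on, so these values describe the cells and test nothing.

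The steady-state difference depended on which Ccr2-zero cells were taken. Ccr2-zero cells that also had 0 UMIs of Timd4, Lyve1, Ly6c2 and Arg1 numbered 176, 1603 and 272. Their H2-Ab1 level was 12623, 5182 and 15057 CPM. The ratio of members to these cells was 1.27 at steady state, 2.84 at day 11 and 1.14 in the macrophage and DC library, and the median log2 ratio of the class II list was 0.37, 1.51 and 0.21. In the 2 steady-state libraries, gated cells without the 4 genes thus had class II RNA near the level of members whether or not they held Ccr2 UMIs, and at day 11 they did not.

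Cell by cell, the class II list took up a median of 1025 UMIs per 10000 in steady-state members, 955 at day 11 and 1080 in the macrophage and DC library. Steady-state members ranged from 268 to 1453 per 10000 and day 11 members from 17.4 to 1953. The medians in Ccr2-zero cells were 330 at steady state, 95.7 at day 11 and 813 in the macrophage and DC library. Above the Ccr2-zero median lay 98.3% of steady-state members (93.9 to 99.8), 96.25% of day 11 members (94.8 to 97.4) and 76.4% of those from the macrophage and DC library (69.8 to 82.3). With the comparison cells that lack the 4 genes, the shares were 70.7, 96.25 and 56.0%. Few day 11 members lay in the low class II range of Ccr2-zero cells.

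**Figure D2:**
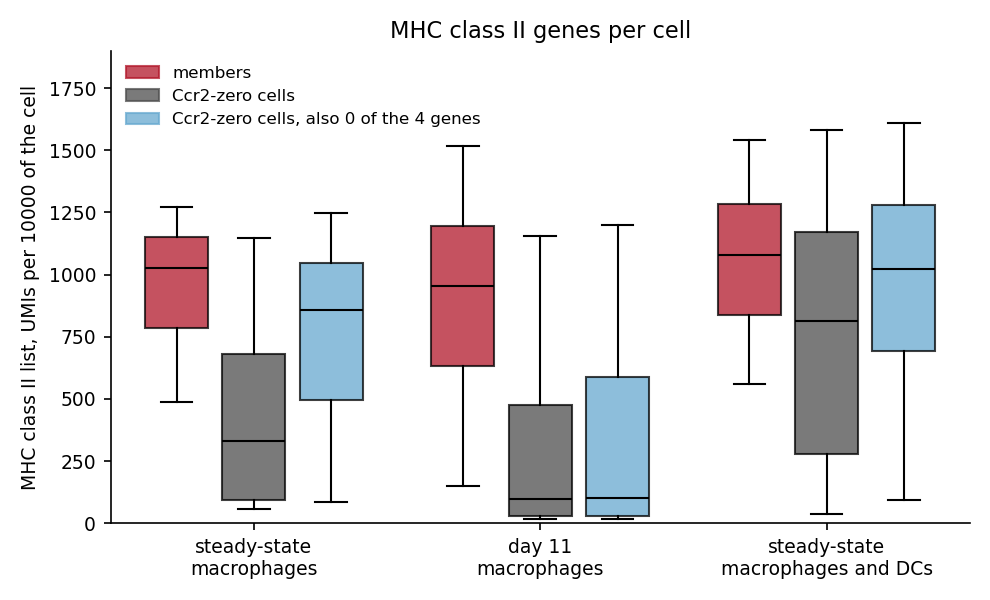
MHC class II list per cell (UMIs of the 11 genes per 10000 UMIs of the cell) in members (red), Ccr2-zero cells (grey) and Ccr2-zero cells that also had 0 UMIs of the 4 genes (blue), by library. Boxes show the quartiles with the median as a line, and whiskers the 5th and 95th percentiles. Medians of members lie between 955 and 1080, while those of the grey boxes run from 95.7 to 813.

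At day 11 class II RNA was higher in cells with more Ccr2 UMIs, with no step at the threshold of 3, and in the other libraries it did not follow the Ccr2 count throughout. In day 11 gated cells without the 4 genes, H2-Ab1 went from 5182 CPM with 0 Ccr2 UMIs (1603 cells) to 8836 CPM with 1 (378 cells) and 12654 CPM with 2 (223 cells). It went on to 13703 CPM with 3 and 16022 CPM with 10 or more. Apoe, which encodes a lipid carrier, went down over the same cells from 57430 to 21273 CPM, and the lipid receptor Trem2 from 1221 to 458 CPM. Clec4b1, a C-type lectin gene, went from 53.5 to 313 CPM. At steady state H2-Ab1 was 12623 CPM with 0 Ccr2 UMIs, 12352 CPM with 1, 17033 CPM with 6 to 9 and 15098 CPM with 10 or more, and Apoe went from 19739 to 10336 CPM. In the macrophage and DC library H2-Ab1 was 15057 CPM with 0 Ccr2 UMIs, highest in the 44 cells with 2 (20191 CPM), and 16483 CPM with 10 or more. The median depth was also greater with more Ccr2 UMIs, from 7122 to 11060 UMIs at day 11, and its part was not tested.

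**Figure D3:**
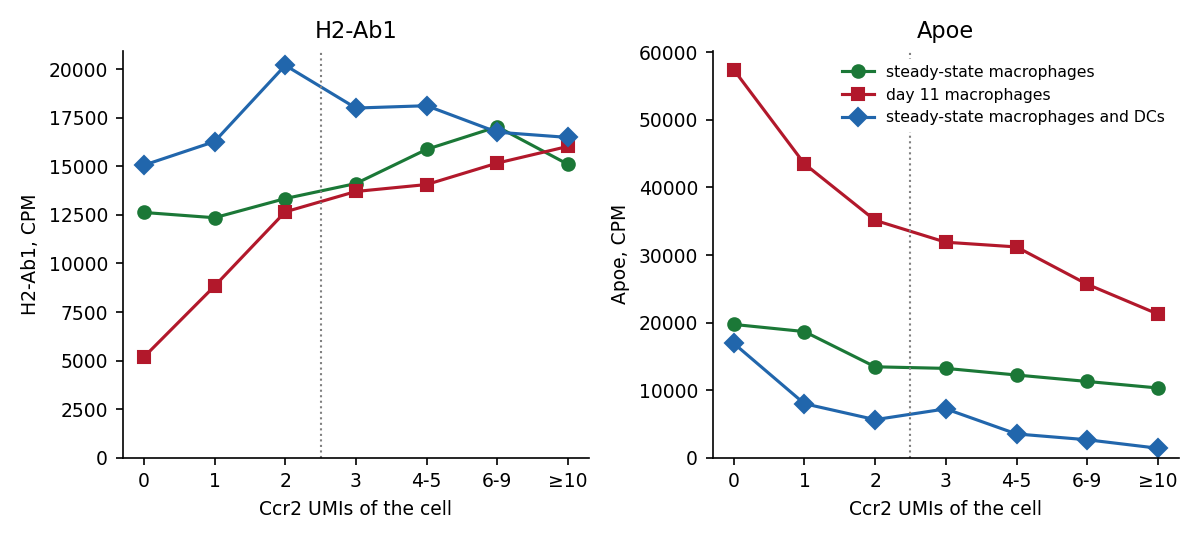
H2-Ab1 and Apoe (CPM, summed over cells) against the Ccr2 UMI count of the cell, for gated cells with 0 UMIs of the 4 genes, 1 line per library. The dotted line marks the threshold between 2 and 3 Ccr2 UMIs. The day 11 line for H2-Ab1 climbs from 5182 to 16022 CPM, and that for Apoe falls from 57430 to 21273 CPM.

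Within members, Spearman's rho between the class II list and the Ccr2 level per cell was 0.20 at steady state (116 cells), 0.29 at day 11 (934 cells) and 0.35 in the macrophage and DC library (191 cells). Between the class II list and Apoe it was -0.10, -0.32 and 0.07. These are descriptions across cells that share a library and whose levels share the cell's total as denominator.

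Beyond the class II family, 5 genes were at least 2-fold higher in members than in Ccr2-zero cells in all 3 libraries, 0.225% of the 2221 tested. Clec4b1 (chr6:123049962-123071555, plus strand, mm10) stood at 289 CPM in steady-state members, 256 CPM at day 11 and 547 CPM in the macrophage and DC library, against 109.8, 53.2 and 109 CPM. Its ratios were 2.63 (2.33 to 2.98), 4.82 (4.47 to 5.20) and 5.02 (4.34 to 5.84). Emb, which encodes the adhesion glycoprotein embigin, stood at 149, 156 and 226 CPM against 37.9, 66.8 and 24.0 CPM, ratios of 3.92, 2.33 and 9.44. Napsa, the aspartic protease napsin A, stood at 64.3, 113 and 99.3 CPM against 17.1, 39.9 and 24.0 CPM, ratios of 3.77, 2.82 and 4.14. Ms4a4c, of a family of membrane-spanning proteins, stood at 76.1, 118 and 82.7 CPM against 24.7, 33.9 and 19.4 CPM. Sirpb1c, a signal regulatory protein gene with close copies beside it, so that its counts are uncertain, stood at 76.9, 103 and 110.4 CPM against 5.61, 44.8 and 3.69 CPM.

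Every one of these 5 genes was also present in DCs or monocytes of the same libraries. In the 340 Cd209a cells of the macrophage and DC library, Napsa stood at 690 CPM, Clec4b1 at 428 CPM and Emb at 303 CPM. In the 76 day 11 cells with Ly6c2 and Plac8, Ms4a4c stood at 850 CPM and Sirpb1c at 365 CPM. Members were thus between these cells and Ccr2-zero cells for Napsa and Ms4a4c, and for Clec4b1 below the Cd209a cells at day 11 (353 CPM) and above them in the macrophage and DC library. The count of 5 was 15 without the macrophage and DC library, 9 without the steady-state macrophage library and 17 without the day 11 library.

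Lower in members than in Ccr2-zero cells by at least 2-fold in all 3 libraries were 12 genes, 0.54% of those tested, and 57 without the day 11 library. Folr2, with the levels given above, was 7.01, 2.76 and 33.2-fold lower. Ccl24, which encodes an eosinophil chemoattractant, stood at 71.9, 18.8 and 88.2 CPM in members against 484, 66.1 and 364 CPM, 6.74, 3.52 and 4.12-fold lower. Gas6, a bridging molecule for the uptake of dying cells, stood at 163, 144 and 16.7 CPM against 624, 318 and 335 CPM. Igf1, a growth factor, stood at 123, 146 and 38.9 CPM against 291, 399 and 268 CPM. The tetraspanin Cd63 stood at 255, 686 and 126 CPM against 694, 1435 and 593 CPM, and the lysosomal protease Ctsl at 78.6, 250.9 and 57.0 CPM against 193, 505 and 198 CPM. The remaining genes were Cd163, C4b, Serpinb6a, Ninj1, Pmp22 and Ctla2b. C4b and Ctla2b have near-identical copies and are uncertain, and C4b rested on 2 UMIs in members of the macrophage and DC library (41.8-fold lower; 11.3 to 349).

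The resident macrophage list held 16 genes, of which 11 reached 50 CPM in every library. Both steady-state libraries had all 11 at least 2-fold lower in members, where 2.66% (steady-state macrophage library) and 7.25% (macrophage and DC library) of all genes tested were. At day 11 it was 4, Ccl24, Cd163, Folr2 and Gas6, where 0.72% of all genes were. The median log2 ratio of the list was -1.94, -0.91 and -3.01. Resident genes mark the same cells as Lyve1 and Timd4, which the choice set to 0 in members only.

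Against Ccr2-zero cells that also lacked the 4 genes, 5 genes were higher in members in all 3 libraries (0.232% of 2156 tested) and 2 were lower (0.0928%). The higher ones were Sirpb1c, Napsa, Emb, Ms4a4c and the calcium-binding protein gene S100a4. S100a4 stood at 397, 437 and 1588 CPM in members against 98.3, 196 and 283 CPM, ratios of 4.04, 2.23 and 5.61. Clec4b1 missed the count at steady state only, with a ratio of 1.89. The lower ones were Cd63 and Ctsl. None of the 8 resident genes tested passed 2-fold in all 3 libraries, with median log2 ratios of -0.68, -0.14 and -2.12. In the macrophage and DC library alone all 8 were at least 2-fold lower, and 5 of the 8 were lower by any amount in all 3 libraries. Ccl24 and Cd163 did not reach 50 CPM at day 11 in this comparison and were not among the 8. Cd63 and Ctsl were thus lower in members under both comparisons.

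**Figure D4:**
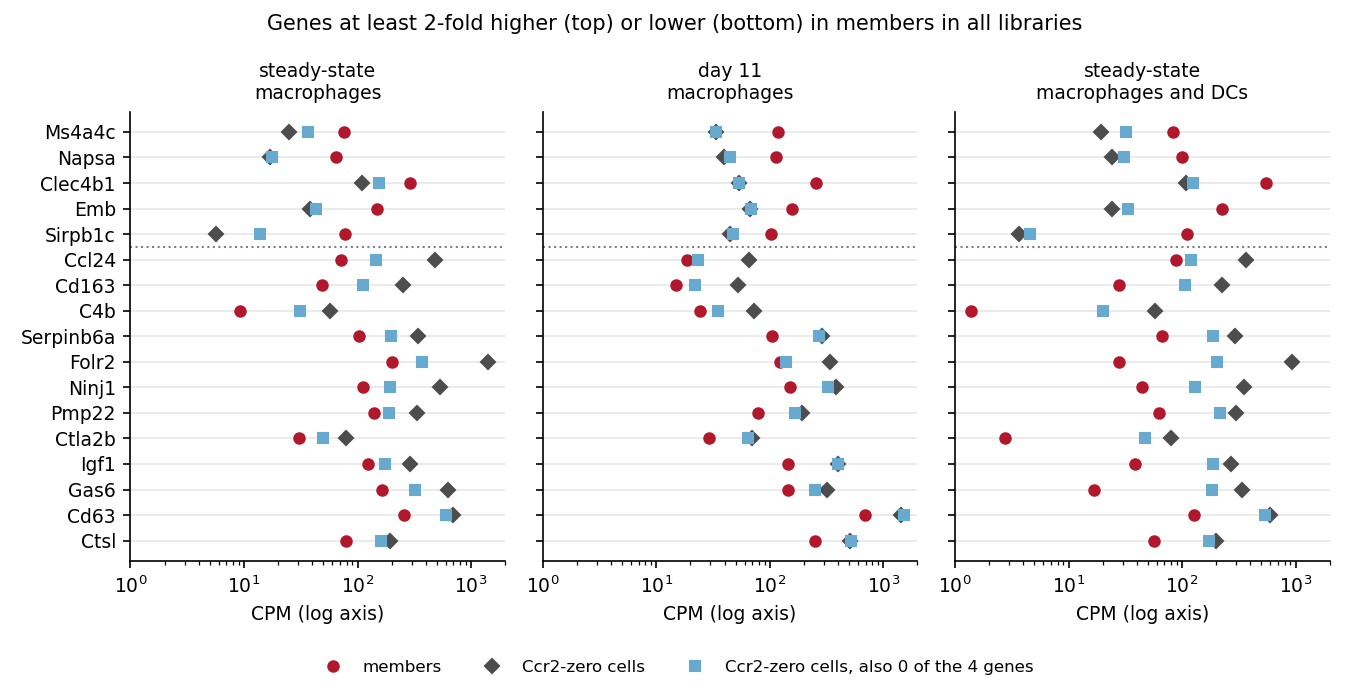
Levels (CPM, log axis) of the 5 genes at least 2-fold higher (above the dotted line) and the 12 at least 2-fold lower in members (red circles) than in Ccr2-zero cells (grey diamonds) in all 3 libraries. Blue squares are Ccr2-zero cells that also had 0 UMIs of the 4 genes. Blue squares lie near the grey diamonds for Emb and Napsa, and near the red circles for Ccl24 and Folr2 at day 11.

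Members of the day 11 library were then set against members of each steady-state library. This comparison asks how these cells differ 11 days after infarction. The choice used the same thresholds in each library, but its 4 genes removed unlike shares of the Ccr2 cells. These were 76.3% at steady state, 30.6% at day 11 and 8.61% in the macrophage and DC library. The part of this removal in the differences was not tested. Day 11 members carried more RNA for some lysosomal and lipid genes and for some chemokines, and less for genes such as Mgl2 and Cd36. Class II genes did not differ by 2-fold. At least 2-fold higher against both steady-state libraries were 16 of 2458 genes (0.651%), and at least 2-fold lower were 9 (0.366%). Over the same genes, 24 were higher and 21 lower against the steady-state macrophage library, and 189 and 50 against the macrophage and DC library. With the other library left out of the 50 CPM filter too, these counts were 24 and 33 of 2652 genes, and 189 and 67 of 2524. No test across animals can be made with 1 library per group, and the day, the animals and the library cannot be told apart.

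Of the lipid and lysosome list, 16 of 17 genes were measured, 7 of them higher and 1 lower against both. The median log2 ratio was 0.94 against the steady-state macrophage library and 1.37 against the macrophage and DC library, where the median of all genes was 0.00 and 0.16. Apoe stood at 27607 CPM in day 11 members against 11461 and 3119 CPM, 2.41-fold (2.37 to 2.45) and 8.85-fold (8.60 to 9.12) higher. Trem2 stood at 597 CPM against 271 and 133 CPM, 2.20 and 4.47-fold higher. Ctsd, a lysosomal protease, stood at 984 CPM against 219 and 265 CPM, 4.496-fold (3.97 to 5.11) and 3.72-fold (3.36 to 4.13) higher. Gpnmb, a glycoprotein of lysosomes, stood at 64.0 CPM, against 2 UMIs in steady-state members (1.69 CPM; ratio 37.9, 10.4 to 313.5) and 0 UMIs in the macrophage and DC library (at least 30.7-fold higher at a floor of 3 counts). Cd63, Ctsl and the phosphatase gene Acp5 were the other higher members of the list. Fabp5, Abca1, Plin2, Lpl and Lipa were measured and did not pass 2-fold against both libraries in either direction.

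Most of these differences also appeared in Ccr2-zero cells. Their day 11 ratio for Apoe was 2.26 and 2.59 against the same libraries, for Ctsd 4.94 and 8.05, and for Trem2 4.16 and 5.25. For Gpnmb it was 47.5 and 299.6, and the level at day 11 was 276 CPM in Ccr2-zero cells against 64.0 CPM in members. Spp1, which encodes osteopontin, stood at 327 CPM in day 11 members against 63.4 and 75.01 CPM, 5.16 and 4.36-fold higher. In Ccr2-zero cells it stood at 1079 CPM and was 23.4 and 97.5-fold higher. Members at day 11 thus carried these genes below the level of the Ccr2-zero cells around them. The 30 Cd209a cells of the day 11 library, a background from cells with little C1q RNA, had Spp1 at 111.5 CPM, Apoe at 2662 CPM and Gpnmb at 10.8 CPM. The part of free RNA in these levels was not tested.

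Among secreted signals, Ccl8 and Ccl5 were higher in day 11 members. Ccl8, a chemokine of the monocyte chemoattractant family, stood at 177 CPM against 20.3 CPM in steady-state members and 0 UMIs in the macrophage and DC library. It was 8.74-fold (5.85 to 13.7) and at least 85.1-fold higher, against 2.35 and 2.62-fold in Ccr2-zero cells and 8.07 and 10.0-fold in Ccr2-zero cells without the 4 genes. The ratio of members was thus above that of all Ccr2-zero cells, but at steady state it was close to that of those without the 4 genes. In the Cd209a cells of the day 11 library Ccl8 stood at 32.4 CPM. Ccl5, a chemokine that attracts T cells, stood at 52.0 CPM against 5.07 and 6.25 CPM, and at 140 CPM in those Cd209a cells. The CCR2 ligands Ccl2, Ccl7 and Ccl12 stood at 119.6, 93.7 and 196 CPM in day 11 members, close to the 124, 83.7 and 177 CPM of steady-state members. They were lower in members of the macrophage and DC library, at 74.3, 15.3 and 10.4 CPM. Of 9 chemokines measured, Ccl8 and Ccl5 alone passed 2-fold against both.

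Other genes higher against both were Mmp14, a membrane-bound matrix protease (59.1 against 6.76 and 11.8 CPM), and the membrane protein gene Ms4a7 (1296 against 374 and 152 CPM). The lectin Clec4n stood at 190 against 79.5 and 56.3 CPM. Hebp1, Olfml3 and Tspan4 completed the 16. The matrix protein fibronectin, Fn1, did not join them: it stood at 115 CPM at day 11, against 6.76 CPM in steady-state members but 276 CPM in the macrophage and DC library. The cytokine Il1b stood at 242 CPM against 145 and 210 CPM.

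Mgl2, a lectin of alternatively activated macrophages and DCs, was lower in day 11 members, at 339 CPM against 1031 and 1151 CPM, 3.05-fold (2.85 to 3.26) and 3.40-fold (3.20 to 3.61). In Ccr2-zero cells it was 6.23 and 5.21-fold lower. Cd36, a fatty acid receptor and the member of the lipid list that went the other way, stood at 60.7 CPM against 250.2 and 163 CPM. It was 4.13 and 2.68-fold lower, and 3.18 and 2.44-fold lower in Ccr2-zero cells. The adaptor genes Pdlim1 and Dok2 and the enzyme gene Qpct were 2.25 to 4.76-fold lower. Pira2, of a receptor family with near-identical copies and therefore uncertain, stood at 29.5 against 59.2 and 93.1 CPM, ratios of 0.50 and 0.32. Its ratios in Ccr2-zero cells were 1.05 and 0.69. Retnla, Ccl24 and an unnamed transcript were the other lower genes.

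Class II RNA of members was slightly lower at day 11. H2-Ab1 stood at 0.918 times the level of steady-state members (0.904 to 0.932) and 0.855 times that of the macrophage and DC library (0.843 to 0.867). None of the 7 class II genes measured passed 2-fold, and the median log2 ratio was -0.19 and -0.23. The same ratio for H2-Ab1 in Ccr2-zero cells was 0.682 and 0.4255.

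**Figure D5:**
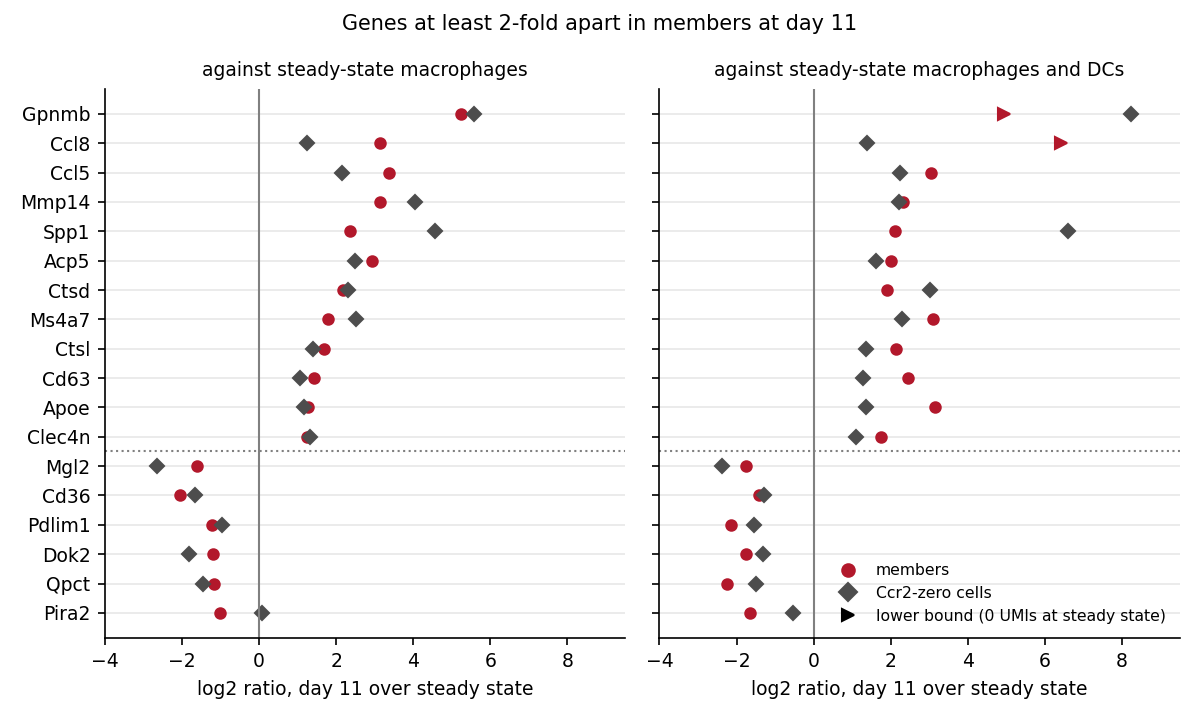
Log2 ratio of day 11 over steady state for the named genes, against the steady-state macrophage library (left) and the macrophage and DC library (right), in members (red circles) and Ccr2-zero cells (grey diamonds). Triangles are lower bounds where steady-state members had 0 UMIs. Spp1 and Gpnmb lie farther right in Ccr2-zero cells and Ccl8 farther right in members than in all Ccr2-zero cells.

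In the macrophage and DC library, members fell into cells with and without high Retnla, which encodes a secreted protein of cells exposed to type 2 cytokines. Retnla stood at 480 CPM in steady-state members, 99.2 CPM at day 11 and 16343 CPM in the macrophage and DC library. There 69 of 191 members (36.1%; 29.3 to 43.4) had 10 or more Retnla UMIs and held 99.1% of the group's Retnla UMIs. At steady state it was 4 of 116 (3.45%) and at day 11 13 of 934 (1.39%). Among Ccr2-zero cells the shares were 10.7% at steady state, 0.859% at day 11 and 6.05% in the macrophage and DC library.

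The 69 Retnla-high members were split from the other 122 after their values were seen, so the values that follow are a description. Ear2, of a ribonuclease family with close copies and therefore uncertain, was 10.6-fold higher in them (8.25 to 13.7; 92.3 CPM in the others). Lyz1, a lysozyme gene, stood at 2634 and 431 CPM, Fn1 at 508 and 67.2 CPM, and Ccl6 at 2645 and 988 CPM. Lower in the Retnla-high members were Apoe (708 and 5282 CPM), Fcgr1 (17.6 and 145 CPM), Ms4a4c (10.3 and 148 CPM) and Cx3cr1 (103 and 279 CPM). H2-Ab1 stood at 16180 and 18163 CPM. The median depth was 9465 UMIs against 5639. Low Fcgr1 in these cells stands beside the CD64- sort that this library included, and which sort gave them cannot be told apart. The low Fcgr1 and Apoe levels given above for all members of this library rest in part on these 69 cells.

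Cell cycle RNA was found in a larger share of members than of Ccr2-zero cells. With each cell thinned to 3000 UMIs, a cell was counted when 3 or more of 15 genes of the cell cycle had a UMI in it. These were 20 of 116 steady-state members (17.2%; 10.9 to 25.4), 89 of 929 day 11 members (9.58%; 7.76 to 11.7) and 14 of 179 members of the macrophage and DC library (7.82%; 4.34 to 12.8). In Ccr2-zero cells the shares were 11.3% (9.31 to 13.5), 4.35% (3.53 to 5.29) and 3.90% (2.15 to 6.46). The intervals of members and Ccr2-zero cells were apart at day 11 and overlapped in both steady-state libraries. In Ccr2-zero cells without the 4 genes the thinned shares were 9.66% (5.73 to 15.0), 4.04% (3.12 to 5.14) and 5.29% (2.57 to 9.52). Without thinning, the shares were 44.0, 23.3 and 14.7% of members and 38.4, 13.7 and 6.26% of all Ccr2-zero cells. The level of Top2a, a topoisomerase of dividing cells, was 76.1, 46.8 and 15.3 CPM in members and 51.0, 20.7 and 14.3 CPM in Ccr2-zero cells. The thinning left out 0, 5 and 12 members and 0, 48 and 104 Ccr2-zero cells with fewer UMIs. The part of free RNA in the cell cycle counts was not tested.

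In the reporter mice, tdTomato RNA was scarce in members and near its level in Ccr2-zero cells at steady state. At day 11 it was lower in members than in Ccr2-zero cells, with overlapping intervals. After thinning it was found in 3 of 116 steady-state members (2.59%; 0.537 to 7.37) and 2 of 929 day 11 members (0.215%; 0.0261 to 0.776), against 3.88% and 0.555% of Ccr2-zero cells. Without thinning these were 10.3% and 0.7495% of members. The summed TdTomato level at steady state was 16.9 CPM in members (10.3 to 26.1) and 15.8 CPM in Ccr2-zero cells (13.4 to 18.5). At day 11 it was 0.739 CPM (0.297 to 1.52, from 7 UMIs) and 1.89 CPM (1.32 to 2.63). In Ccr2-zero cells without the 4 genes it was 17.5 CPM at steady state and 1.38 CPM (0.804 to 2.21) at day 11. Cells under the C1q gate were also counted when they held UMIs of the cDC1 genes Xcr1, Clec9a and Naaa. Of these, 1 of 8 held a TdTomato UMI at steady state and 0 of 68 at day 11 (exact upper bound 5.28%). They are not shown to be cDC1: with an Xcr1 UMI required, each library had 2 such cells, both above the gate. EYFP, which reads the Cx3cr1 locus, stood at 67.6 and 43.3 CPM in members and 44.8 and 35.3 CPM in Ccr2-zero cells. In Ccr2-zero cells without the 4 genes EYFP stood at 83.8 and 36.5 CPM. At steady state members were thus not above these cells (53.6 to 84.2 in members, 68.9 to 101 in these cells). Cx3cr1 itself stood at 273 and 250 CPM in members against 210 and 218 CPM. At day 11, 18 of the 68 cells under the C1q gate held an EYFP UMI, so a single EYFP UMI does not mark a member. The time of tamoxifen treatment is not in the labels, and reporter RNA is read here as RNA only.

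The 3 libraries held 1806, 4697 and 1780 barcodes and 14388327 to 45177529 UMIs. Members had 2071 to 37251 UMIs each, with medians of 2551, 2435 and 1837 detected genes. Mitochondrial genes took a median of 2.32, 1.75 and 1.85% of UMIs in members, against 3.13, 2.12 and 2.49% in Ccr2-zero cells. The libraries shared 7 to 11 cell barcodes pairwise, and 1 barcode was a member in both the day 11 and the macrophage and DC library.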

How the data were processed

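The deposited values are raw UMI counts per gene and cell barcode from 10x Chromium 3′ v2 libraries. The submitters' processing notes name Cell Ranger, STAR and mm10, and versions and the cell-calling rule are not given in the sources used. Barcodes needed 500 detected genes and no more than 10% mitochondrial UMIs, which removed 39 at steady state, 24 at day 11 and 13 in the macrophage and DC library. Doublets were kept and scored with Scrublet (scanpy 1.11.5). Its automatic threshold marked 4, 0 and 2 barcodes, so an alternative removed the highest scores, 25, 175 and 25 barcodes.

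Levels in CPM are a cell group's UMIs of a gene, summed, over all its UMIs. Ratios have exact conditional binomial and shares exact Clopper-Pearson 95% intervals (SciPy 1.17.1, Python 3.11.15). No p-value is given, since each group is 1 library. Called means 2-fold or more in every library, or against both references, among genes at 50 CPM or more. Counts of 0 were bounded with 3 counts. The procedure was tested on simulated data.

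Members and the 34 gene lists were chosen with earlier results of these data known. Genes were named by rule, up to 12 per direction with the largest smallest fold. Genes of the choice, technical and unnamed genes, and genes with over 25% of UMIs in 1 member cell were left out, and list members could be named besides. Alternatives are given in the closing section. Positions are from GENCODE on mm10.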

Additional observations from a re-analysis of the deposited data

How the results depend on the processing

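No alternative reversed the direction of a named gene or of the H2-Ab1 or Cd74 ratio. List medians were recomputed only with comparison cells lacking the 4 genes. Whether more genes were higher or lower did change. For members over Ccr2-zero cells, 5 higher and 12 lower became 5 and 2 with comparison cells lacking the 4 genes. For day 11 over steady state, 16 higher and 9 lower became 24 and 33 without the macrophage and DC library. With Ccr2 at 2 or more UMIs, members made up 8.13, 26.3 and 29.9% of gated cells (steady-state macrophage, day 11, and macrophage and DC library), and with 5 or more 4.94, 12.8 and 16.4%. With 1 UMI after thinning to 3000 UMIs they made up 24.7% at day 11 and 32.5% in the last library, and with C1q at 80 per 10000 20.6% there. The H2-Ab1 ratio to Ccr2-zero cells in this order was 2.26, 3.06 and 1.60 with 2 or more Ccr2 UMIs, and 2.60, 3.99 and 2.41 against comparison cells at least as deep as the median member. With cells weighted equally it was 2.20, 2.97 and 1.49, and with comparison cells lacking the 4 genes 1.27, 2.84 and 1.14. The Cd74 ratio was 2.34, 2.98 and 1.47 with 2 or more Ccr2 UMIs, 2.36, 3.10 and 1.39 with 5 or more, 2.75, 3.92 and 2.40 against deep cells, 2.27, 2.91 and 1.36 with cells weighted equally, and 1.22, 2.72 and 1.04 with comparison cells lacking the 4 genes. At day 11 the H2-Ab1 and Cd74 ratios were 3.10 and 3.01 at the stricter C1q gate and 3.23 and 3.14 without the highest Scrublet scores. H2-Ab1 was 3.21 there with 5 or more Ccr2 UMIs and Cd74 3.02 at 5% mitochondrial UMIs. In the macrophage and DC library H2-Ab1 was 1.52 with 5 or more Ccr2 UMIs and 1.51 at 5% mitochondrial UMIs, and Cd74 was 1.47 at the stricter C1q gate and 1.38 at 5% mitochondrial UMIs. Without cells of 10 or more Retnla UMIs, an alternative chosen after seeing the data, H2-Ab1 was 1.62 and Cd74 1.49 in that library, and Cd74 2.33 at steady state. TdTomato was in 0% of day 11 members with 5 or more Ccr2 UMIs (upper bound 0.654%).

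Of 5 genes higher and 12 lower in members, the counts were 15 higher at 20 CPM, 2 higher at 100 CPM, 14 and 21 against deep cells and 2 lower with comparison cells lacking the 4 genes. They were 15 higher without the macrophage and DC library. Libraries left out after seeing the data gave 9 higher without the steady-state macrophage library, and 17 and 57 without the day 11 library. For day 11 against steady state, with 16 and 9 genes, the counts were 42 and 22 at 20 CPM, 10 and 5 at 100 CPM, 33 lower without the macrophage and DC library, and 189 and 67 without the steady-state macrophage library, both left out after seeing the data. Of the 17 named genes, 11 missed 2-fold in some library with comparison cells lacking the 4 genes, and Ctsl did with cells weighted equally. Of the 18 named for day 11, 1 at most, Pira2, missed 2-fold under any setting. The cause of these shifts was not tested. No paired analysis was possible because each group is 1 library. Depth limits the zeros: a member with 3000 UMIs can miss Timd4 or Lyve1 RNA, and the macrophage and DC library was the shallowest.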

Other observations

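Calcium-binding S100 genes, annexins and galectins were described as a list. Of 10 genes in the list, 8 were measured. In the macrophage and DC library 7 of them were at least 2-fold higher in members than in Ccr2-zero cells. There 1.49% of all genes were, and in the other libraries none of the 8 was. With comparison cells lacking the 4 genes it was 5 at steady state, 1 at day 11 and 6 in the macrophage and DC library (median log2 ratios 1.05, 0.20 and 1.81). Against all Ccr2-zero cells the median log2 ratio was 0.36 at steady state, -0.01 at day 11 and 1.504 in the macrophage and DC library. S100a6 stood at 757, 750.4 and 2502 CPM in members. Lgals3, which encodes galectin 3, stood at 675, 1007 and 1108 CPM in members against 437, 1694 and 493 CPM, so that at day 11 it was lower in members.

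Immediate early genes, which rise with handling and digestion, had median log2 ratios of -0.01, 0.10 and -1.06 in members over Ccr2-zero cells (12 genes measured). In the macrophage and DC library 7 of them were at least 2-fold lower in members, where 7.25% of all genes were. Heat shock genes had medians of -0.06, 0.18 and -0.31 (8 genes). Inflammatory cytokines had medians of 0.21, 0.10 and -1.21 (5 genes), which became -0.63, 0.03 and -1.69 with comparison cells lacking the 4 genes. In the macrophage and DC library 4 of the 5 were at least 2-fold lower in members, where 7.25% of all genes were. With comparison cells lacking the 4 genes all 5 were, where 149 of 2156 genes were. At steady state 1 of the 5 was under both comparisons, and at day 11 0. None of these 3 lists had a gene past 2-fold in all 3 libraries. Genes of glycolysis and hypoxia had medians of 0.15, 0.07 and 0.80 (5 genes), and MHC class I genes 0.28, 0.24 and -0.12 (10 genes).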
